A study of Drosophila melanogaster with 2 samples.

Results

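The X chromosome of S2 cells carried 369 of the 6387 regions enriched in H3T3ph, which is 5.78% of the list. They are all the regions whose chromosome is given as X, and the 36 regions on XHet, a separate scaffold of X heterochromatin, were not used. The list comes from 1 ChIP-seq library immunoprecipitated (IP) with an antibody against H3T3ph and 1 library of input DNA. Both libraries were made from S2 cells, a cultured line of *Drosophila melanogaster* embryonic origin, for which no treatment and no mutation is given. The input library shows how deeply each stretch of DNA was sequenced without immunoprecipitation. With 1 library of each kind there is no replicate check of any value. All intervals are 95% intervals for counting error alone, of reads or of regions. Amplified reads that carry no molecular identifier need not come from separate molecules, so that intervals on reads can be too narrow. Read depth was 21013056 IP reads and 23747069 input reads, totals that follow from the reads and RPKM of the regions, where RPKM scales reads by region length and by the size of the library.

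H3T3ph is histone H3 phosphorylated at threonine 3, a mark placed by the kinase haspin. In mitosis it is known for gathering at the inner centromere, where it helps to recruit the chromosomal passenger complex, and the study behind these data asked where it lies in the genome. The *Drosophila* X has its centromere near one end, at the high coordinates, with pericentric heterochromatin next to it, and the rest of the chromosome is largely euchromatic. S2 cells are a male line, so that X is present in fewer copies than the autosomes and is the target of the dosage compensation complex. These facts are background and were not measured here. Positions are dm3 coordinates counted from 1. No dm3 gene annotation was used, so that no gene, exon or sequence is given for a region.

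The narrowest region of X measured 1 bp, the median one 72 bp and the widest 5599 bp, and together they covered 157 kb, or 0.701% of the 22.4 Mb up to the last region. There were 235 narrow regions, no wider than 200 bp, and 62 wide regions above 800 bp. The other 72 are called middle here. The wide regions held 72.5% of the covered sequence and the narrow ones 6.49%. The narrow and the wide regions of X lay in different places. Narrow regions were found in each of the 23 bins of 1 Mb, whereas 14 of these bins had no wide region. The bin from 21 to 22 Mb alone had 45 of the 62 wide regions, 72.6% of them, and 61.2% of the covered sequence, but 12 of the 235 narrow regions.

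**Figure D1:**
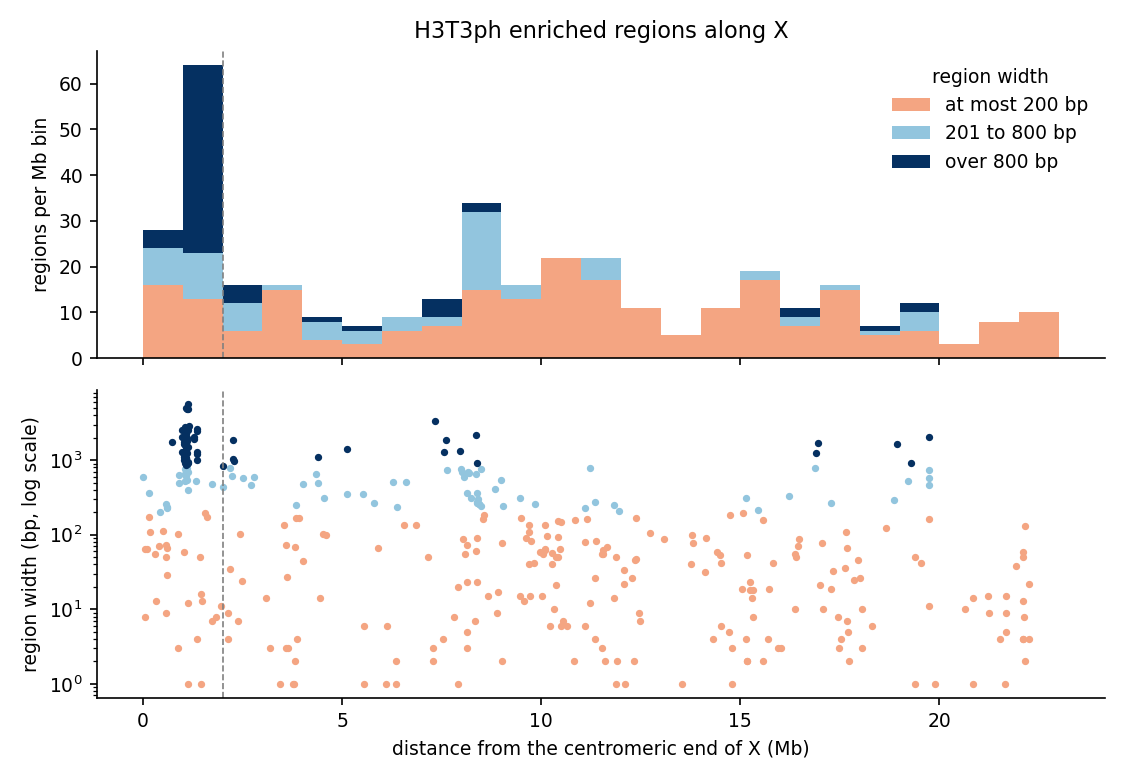
Regions of X by distance from the centromeric end (Mb). The upper panel counts regions per bin of 1 Mb, stacked by width, the lower panel gives the width of each of the 369 regions in bp on a log scale, and the dashed line marks 2 Mb. Narrow regions (at most 200 bp) run along the whole chromosome, and 45 of the 62 wide ones (over 800 bp) lie within 2 Mb of the end.

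The 2 Mb next to the centromeric end are called proximal and the rest distal. Away from the centromere, X had about as many regions per Mb as the autosomal arms, but they were narrower. Distal X held 277 regions, or 13.6 per Mb, against 15.5 on distal 2L, 15.3 on distal 3L and 12.5 on distal 3R. The ratio of distal X to these arms together was 0.946 (exact interval from 0.825 to 1.08, which includes 1), and 1.03 with 4 Mb taken as proximal (interval from 0.888 to 1.19). Narrow regions had 10.1 per Mb on distal X, against 5.72 on 2L, 5.19 on 3L and 3.93 on 3R. Relative to the 3 arms together this is 2.07 (interval from 1.73 to 2.46). Wide regions went the other way, with 0.833 per Mb on distal X, against 5.96 on 2L, 4.26 on 3L and 5.53 on 3R, a ratio of 0.159 (interval from 0.0915 to 0.258). Middle regions had a ratio of 0.627 (interval from 0.460 to 0.841), and against 3R alone the interval, from 0.597 to 1.23, included 1. The similar number of regions thus did not extend to the sequence they cover. Regions covered 0.286% of distal X, against 1.53% of distal 2L, 1.07% of distal 3L and 1.23% of distal 3R, so that in covered bp per Mb the ratio was 0.226. Counting only regions that reach the median width of the whole list, the ratio in number was 0.268. Neighboring regions are not independent of each other, which these intervals do not take into account.

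**Figure D2:**
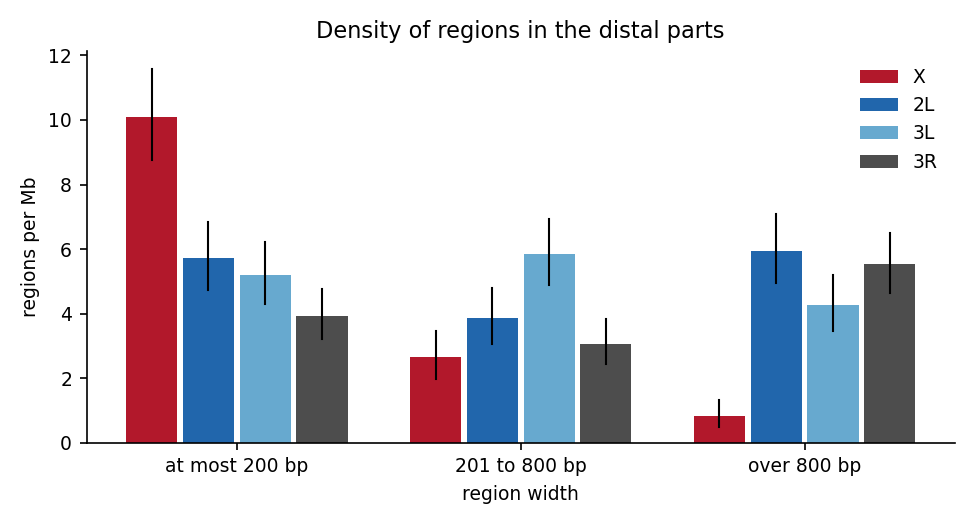
Density of regions (regions per Mb) in the distal parts of X, 2L, 3L and 3R, by region width. Bars are counts over length and lines are 95% exact Poisson intervals on the count. X has the tallest bar for narrow regions (10.1 per Mb) and the lowest for wide ones (0.833 per Mb).

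The median width was 50 bp on distal X (interval from 36 to 65 bp), with quartiles of 8 and 212 bp. On the distal autosomal arms the median was 527 bp for 2L, 436 bp for 3L and 652 bp for 3R. Of the distal X regions, 74.4% were narrow (Wilson interval from 68.9 to 79.2%), against 36.8% on 2L, 33.9% on 3L and 31.4% on 3R. Wide regions made up 6.14% on distal X (interval from 3.87 to 9.61%), against 38.3%, 27.8% and 44.1% on 2L, 3L and 3R. The interval of X does not meet that of any of these arms, in either share. The narrowest regions stood out in number. Regions of at most 50 bp, as short as a single read of 50 nt or shorter, numbered 140 on distal X, against 72 on 2L, 58 on 3L and 53 on 3R, and 82 of those on X were at most 10 bp wide. Few distal X regions lay close to the limits of these classes, 5 within 20 bp of 200 bp and 8 within 80 bp of 800 bp. Near the centromere the difference in percentage points was smaller and the arms differed among themselves. Narrow regions made up 31.5% of proximal X (interval from 22.9 to 41.6%), against 5.14% on 2L, 14.4% on 3L and 20.6% on 3R, where the interval, from 10.3 to 36.8%, overlapped that of X. Per Mb, narrow regions of proximal X were at 0.926 times the 3 arms together (interval from 0.588 to 1.42). Wide ones were at 0.273 (interval from 0.196 to 0.370), though at 2.5 against 3R alone.

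**Figure D3:**
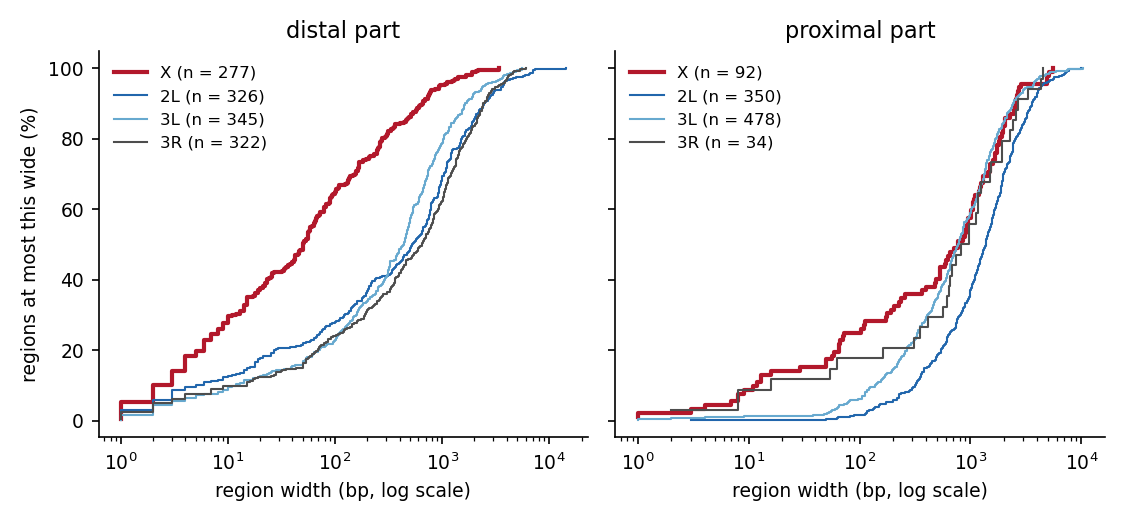
Share of regions (%) at most as wide as the value on the x axis (bp, log scale), for X, 2L, 3L and 3R in the distal and the proximal part, with the number of regions of each. The distal X curve lies left of the other arms, with a median of 50 bp against 436 to 652 bp, while the proximal curves lie closer together.

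How few reads the narrow regions of X rest on is best seen in single regions. The first region of X, from 166992 to 166995, is 4 bp wide and has 10 IP reads and no input read. In a region of 50 bp from 12051765 to 12051814 there were 18 IP reads and 1 input read, so that its IP to input ratio of 20.3 has an interval from 3.21 to 848. The ratio is always the reads of IP over those of input, each scaled to its library total. A region of 147 bp from 11925835 to 11925981 had 39 IP and 15 input reads, a ratio of 2.94 (interval from 1.58 to 5.74). With greater width the reads rose and the ratio went down. The region from 5147132 to 5147397, 266 bp wide, had 59 IP and 32 input reads (ratio 2.08), and the region from 19701500 to 19701960, 461 bp wide, had 125 and 79 reads (ratio 1.79). The region from 3136777 to 3137704, 928 bp wide, had 289 and 233 reads (ratio 1.40). Apart from the first region of X, these were picked because their ratios are nearest to the pooled ratio of their class of width.

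Narrow regions of distal X had a median of 12 IP reads and 1 input read, and wide ones a median of 388 IP and 297 input reads. Among the 206 narrow regions, 68.9% had at most 20 reads of both libraries together and 58 had exactly 10 IP reads, the lowest number in the list. No input read was found in 76 of the 206, or 36.9%, and all 76 were at most 36 bp wide. The share of narrow regions with no input read was 34.2% on 2L, 23.9% on 3L and 26.7% on 3R. On all of X the 81 regions without input had at most 13 IP reads. What a region needed in order to be listed also differed with its reads. Among X regions with up to 20 IP reads and an input read, the lowest ratio was 4.52. Above 20 IP reads and up to 100 the lowest was 1.72, and above 100 and up to 1000 it was 1.17. Narrow regions of distal X had a pooled ratio of 4.73 (interval from 4.40 to 5.10), or 5.52 without the deep region of 124 bp, and wide ones 1.43 (interval from 1.39 to 1.48). As the lowest listed ratio differs with the number of reads, these values were not read as a difference in enrichment. At equal reads the widths of X and the arms were close where reads were few. Regions with at most 20 reads of both libraries were 51.3% of distal X, against 18.5% of the arms together, and their median width was 8 bp on X and 7.5 bp on the arms. Regions with more than 500 reads were 5.05% of distal X, against 28.0% of the arms, with a median width of 1526 bp on X and 1878.5 bp on the arms.

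At equal width, the input depth of distal X was slightly below that of the autosomal arms. Summed over 6 classes of width, distal X had 0.930 times the input reads expected at the depth of 2L, 3L and 3R together (interval from 0.912 to 0.948). Set against 2L alone the value was 0.884 (interval from 0.867 to 0.901), against 3L alone 0.939 (interval from 0.921 to 0.957) and against 3R alone 0.967 (interval from 0.949 to 0.986), so that each interval lies below 1. A value this low is not particular to X. Distal 3R was at 0.928 times 2L and 3L together (interval from 0.921 to 0.934). Distal 3L was at 0.989 and distal 2L at 1.08 times the remaining autosomal arms. Leaving 5 regions of high ratio, described further on, out of X alone gave 0.967 for the 3 arms together and 1.004 against 3R alone (interval from 0.985 to 1.02, which includes 1). Wide regions had 223 input reads per kb on distal X (interval from 218 to 229), against 257 on 2L, 239 on 3L and 231 on 3R. Their median width was 1308 bp on distal X, against 1625, 1387.5 and 1573 bp, so these values are not at equal width. Between 200 and 400 bp, a class with none of the 5 regions, distal X was at 0.844 times the 3 arms (interval from 0.787 to 0.903). Between 400 and 800 bp it was at 0.907 (interval from 0.872 to 0.944), or 0.935 without the 5 regions (interval from 0.897 to 0.974). Above 800 and up to 1600 bp, distal X was at 1.04 times the 3 arms (interval from 1.002 to 1.09). Above 1600 bp it was at 0.871 (interval from 0.841 to 0.902), or 0.958 without the 5 regions (interval from 0.924 to 0.993). Without them, wide regions of distal X had 235 input reads per kb, and the interval, from 229 to 242, includes the 231 of 3R. In narrow regions 1 region decided the value. They had 102.0 input reads per kb on distal X (interval from 95.3 to 109), against 101 on 2L, 101.5 on 3L and 104 on 3R, but a region of 124 bp from 3751988 to 3752111 held 171 of their 881 input reads. Without it, narrow regions had 83.4 input reads per kb (interval from 77.4 to 89.7), or 0.817 times those of the 3 arms (interval from 0.749 to 0.890). The class above 50 bp and no wider than 200 bp was likewise at 1.10 times the arms with that region (interval from 1.01 to 1.20) and at 0.882 without it (interval from 0.805 to 0.965). Regions of at most 50 bp were at 0.835 (interval from 0.622 to 1.12). Depth at equal width does not give the depth of X as a whole, because the list holds no reads outside its regions. The median region of distal X had an input RPKM of 3.01, against 7.34 on 2L, 6.56 on 3L and 7.34 on 3R. This lower input depth moves with the narrower width, and its part in the width was not tested. Over a position of a region, the reads of both libraries averaged 10.7 in the median distal X region, against 19.2 on 2L, 17.4 on 3L and 19.3 on 3R. The authors set a minimum of 10 reads when finding regions, and the value of X is close to it. The part of this minimum in the width and number of narrow regions was not tested.

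**Figure D4:**
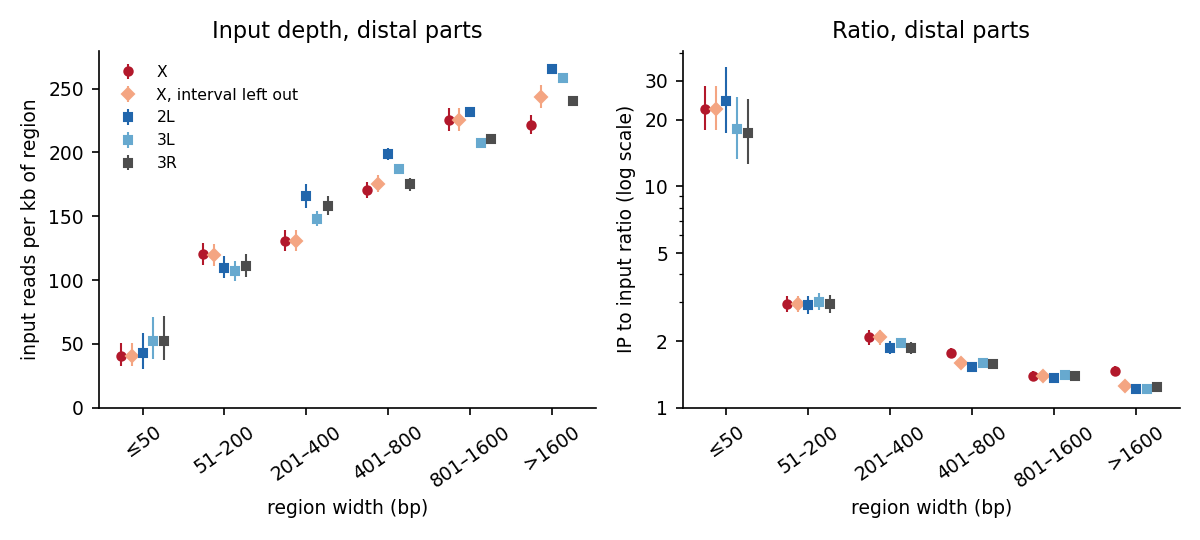
Input reads per kb of region (left, linear axis) and IP to input ratio (right, log axis) of the distal parts, pooled within 6 classes of region width (bp), with 95% exact intervals. Red circles are X, orange diamonds X without 5 regions of high ratio, and squares 2L, 3L and 3R, and X lies farthest above the arms in the ratio of the class over 1600 bp, at 1.47, or 1.26 without those regions.

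The IP to input ratio at equal width was slightly higher on distal X than on the arms. Regions in 1 place added to this excess. Over the 6 classes it was 1.10 times that of 2L, 3L and 3R (interval from 1.06 to 1.14), with 1.09 against 2L alone, 1.10 against 3L alone and 1.11 against 3R alone. Without 5 regions between 2683975 and 2690757, chosen because 3 of them are at least 400 bp wide with a ratio of 5 or more, it was 1.03 (interval from 0.995 to 1.07, which includes 1). They were chosen by ratio and left out of X alone, while the arms kept all their regions. A lower value had to follow, so it does not show that the rest of X equals the arms. With the deep region of 124 bp left out as well, the ratio of X to the arms was 1.05 (interval from 1.01 to 1.09). In the class over 1600 bp the ratio was 1.47 on distal X, against 1.21 on 2L, 1.21 on 3L and 1.24 on 3R, and on X it was 1.26 (interval from 1.20 to 1.32) without the single region of that class in the interval. Between 200 and 400 bp, a class that has none of the 5, the ratio was 2.08 on X (interval from 1.93 to 2.25), against 1.87, 1.96 and 1.86 on 2L, 3L and 3R. Relative to these arms together it was 1.09 (interval from 1.004 to 1.19). Input depth in this class was 0.844 times that of the arms, and the lowest listed ratio differs with reads. The part of this in the higher ratio was not tested. At 51 to 100 reads of both libraries the ratio was 2.45 on distal X and 2.42 on the arms. At 101 to 200 reads it was 2.10 and 1.81. Both read classes include a region of the 5. Between 800 and 1600 bp the ratio was 1.39 on X (interval from 1.32 to 1.46), against 1.36, 1.40 and 1.39.

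These 5 regions covered 4018 bp, 6.87% of the covered length of distal X, and held 9.51% of its IP reads. They come in 2 groups with a stretch of 2745 bp between them that has no listed region, from 2687275 to 2690019. The left group has 3 regions, of 742, 2068 and 471 bp, with 479.8, 389 and 318 IP reads per kb and 187, 86.6 and 70.1 input reads per kb. The right group has a region of 163 bp with 405 IP and 147 input reads per kb, and one of 574 bp with 456 IP and 101 input reads per kb. The other 16 wide regions of distal X had between 216 and 392 IP reads per kb and between 159 and 309 input reads per kb. The widest region of the interval was thus near the top of their range in the IP and below it in the input. Its ratio of 5.08 (interval from 4.32 to 6.01) compares with 1.17 to 1.54 for the other 16. Of the 5 X regions whose deposited p-value is 0, 4 lie here.

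Toward the centromere the regions of X became wide and crowded. Proximal X held 92 regions, or 46.0 per Mb, against 13.6 per Mb on distal X, a ratio of 3.39 (interval from 2.65 to 4.31). Wide regions had 22.5 per Mb in the proximal part, against 0.833 per Mb in the distal part, a ratio of 27.0 (interval from 15.2 to 50.4). After joining regions within 500 bp this ratio was 15.6. Narrow regions had 14.5 per Mb in the proximal and 10.1 per Mb in the distal part, and the interval of their ratio, 1.44, ran from 0.939 to 2.13 and so includes 1. The rise of X toward its centromere was thus clear for wide and, with a ratio of 3.40 (interval from 1.88 to 5.89), for middle regions. For narrow regions the interval is too broad to tell a rise from none. The ratio of proximal to distal density for wide regions was 20.6 on 2L (interval from 16.6 to 25.8), 27.1 on 3L (interval from 21.3 to 34.8) and 1.63 on 3R (interval from 0.938 to 2.67). The interval of X overlaps those of 2L and 3L and lies above that of 3R. In number of wide regions the proximal part of X, with 45, was between that of 2L and 3L, with 246 and 231, and that of 3R, with 18. For narrow regions the ratio was 1.57 on 2L (interval from 0.902 to 2.60), 6.65 on 3L (interval from 4.86 to 9.02) and 0.891 on 3R (interval from 0.349 to 1.90), so that 1 lies outside the interval on 3L alone. Regions covered 4.93% of proximal X, against 30.2% of 2L, 26.9% of 3L and 2.08% of 3R.

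The size of this rise depends on the border, because the wide regions of X do not lie at the very end. Of the 92 proximal regions, 59 were between 0.9 and 1.4 Mb from the last region, and 44 of the 45 wide ones were among them. In this band, whose borders were set after the positions had been seen, regions covered 18.6% of the sequence. The last 0.9 Mb had 23 regions, of which 16 were narrow and 1 was wide, and they covered 0.513% of it. On 2L and 3L the last 0.9 Mb held 179 and 232 regions that covered 28.1% and 24.3%. When only 1 Mb is taken as proximal, the densest stretch of X counts as distal. The ratio of proximal to distal X was then 1.76 for all regions and 1.48 for wide ones (interval from 0.389 to 3.99), and the density of wide regions relative to the arms was 0.328 in the distal part. The ratio for all regions also grew as narrow ones lost weight. It was 13.5 for regions that reach the median width of the list and 17.2 in covered bp per Mb, and 7.94 among the 3224 regions of the list with the lowest deposited p-values.

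**Figure D5:**
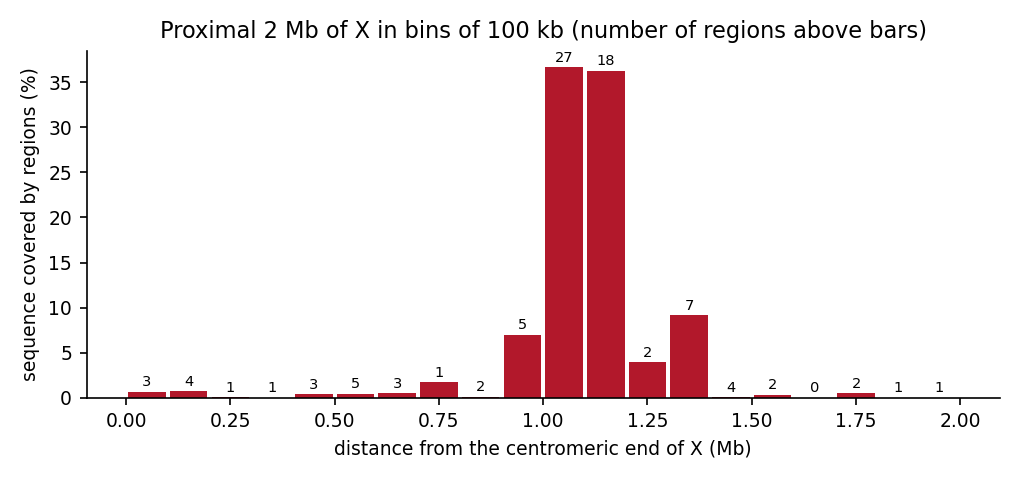
Sequence covered by regions (%) in bins of 100 kb over the 2 Mb next to the centromeric end of X, by distance from that end (Mb), with the number of regions above each bar. The 2 bins between 1.0 and 1.2 Mb, with 27 and 18 regions, stand above the rest at 36.7% and 36.3%.

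The dense stretch holds 1 large cluster and a smaller run beside it. A cluster was taken as at least 10 regions with gaps of no more than 25 kb, and a run as at least 5. The large cluster, from 21268278 to 21395008, had 45 regions over 127 kb, of which 34 were wide and 3 narrow, and regions covered 57.5% of it with a median gap of 0.492 kb. With 18950 IP and 15839 input reads, its ratio was 1.35 (interval from 1.32 to 1.38). The 3 widest regions of X lie in it. They run from 21287237 to 21292835 with 1452 IP and 1306 input reads (ratio 1.26), from 21323320 to 21328389 with 1379 and 1165 reads (ratio 1.34), and from 21281326 to 21286236 with 1349 and 1186 reads (ratio 1.29). The IP was thus above the input by a similar, small factor in each, with intervals that overlap. The second of them had the lowest deposited p-value above 0 on X, 6.84e-11. The run beside the cluster, from 21052900 to 21090243, had 7 regions, 5 of them wide, and its ratio was 1.36 (interval from 1.28 to 1.44). Another run, from 21806463 to 21844357, differed from both. It had 8 regions, 5 of them narrow and none wide, that covered 2.50% of its 37.9 kb, and its ratio was 3.13 (interval from 2.47 to 4.00).

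The wide regions of proximal X had 226 input reads per kb (interval from 223 to 229), nearly the 223 of distal X. On proximal 2L they had 344 and on proximal 3L 245 input reads per kb, and on 3R 254. At equal width the input depth of proximal X was 0.754 times that of the 3 arms (interval from 0.744 to 0.764), and it was below each of them alone, at 0.649 against 2L, 0.907 against 3L (interval from 0.895 to 0.919) and 0.885 against 3R (interval from 0.874 to 0.897). Proximal 3L was also low, at 0.722 times 2L and 3R together (interval from 0.718 to 0.726). The IP to input ratio of proximal X at equal width had no common direction against the arms. It was 1.01 times that of 2L (interval from 0.987 to 1.03), 0.934 times that of 3L (interval from 0.915 to 0.954) and 1.07 times that of 3R (interval from 1.03 to 1.11). In proximal wide regions alone the ratio was 1.35 on X (interval from 1.32 to 1.37), 1.35 on 2L, 1.46 on 3L and 1.24 on 3R.

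The 17 wide regions of distal X were few and mostly apart. In the first 10 Mb there were 5, and in the 10 Mb that follow 8. The widest, from 15089701 to 15093086, had 894 IP and 862 input reads, and its ratio of 1.17 (interval from 1.07 to 1.29) is the lowest among them. Next came 14061357 to 14063528, where 528 IP and 417 input reads gave a ratio of 1.43 (interval from 1.26 to 1.63). It lies in the only distal cluster of X, from 13977484 to 14086682, which had 13 regions over 109 kb, 4 narrow and 2 wide, where the median width was 263 bp and the ratio 1.68 (interval from 1.55 to 1.83). Around it, the bin from 14 to 15 Mb was the densest of the first 20 Mb, with 32 regions, 13 of them of middle width and 5 wide. The next by number among these 20 bins, from 12 to 13 Mb, had a different makeup, with 24 narrow regions among 26, no wide one and 2.10 kb covered, against 14.7 kb in the bin from 14 to 15 Mb. Close to the border of the proximal part, wide regions from 20129123 to 20130084 and from 20147248 to 20148299 had ratios of 1.43 and 1.42.

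Narrow and wide regions of X differed in spacing in the proximal part, but not clearly in the distal part. From one region to the next, the median gap was 34.3 kb on distal X (interval from 26.6 to 43.2 kb), against 24.4 kb on 2L, 22.0 kb on 3L and 26.5 kb on 3R, and the intervals of these arms reach 31.0, 31.1 and 36.1 kb. On proximal X the median gap was 2.04 kb, against 0.32 kb on 2L, 0.659 kb on 3L and 28.1 kb on 3R. Of the distal X regions, 67.5% had a neighbor within 25 kb (interval from 61.8 to 72.8%), as on 2L, 3L and 3R with 68.7%, 65.8% and 65.8%. Clusters took a smaller share of X. They held 13 of the 277 distal X regions, or 4.69%, against 15.0% on 2L, 27.0% on 3L and 20.8% on 3R. The longest gap of X ran from 1765754 to 2518051, or 752 kb. The next longest were 511 kb from 17300977 and 465 kb from 8874103.

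Wide regions of proximal X nearly touched, with a median distance of 0.124 kb to the nearest region, and 34 of the 45 had another wide region within 1 kb. Those of proximal 2L and 3L lay closer still, at 0.0335 and 0.042 kb, and those of 3R farther apart, at 4.76 kb. In the distal part of X the 17 wide regions had a median distance of 14.1 kb, and 1 of them had any region within 1 kb. Narrow regions had a median distance to the nearest region of 10.9 kb on distal X and 6.57 kb on proximal X. On proximal 2L, 3L and 3R this distance was 0.762, 0.433 and 7.87 kb, so the wider spacing of narrow regions is not particular to X. On distal X, 67.5% of narrow regions had a neighbor within 25 kb (interval from 60.8 to 73.5%). For wide ones this was 58.8%, with an interval from 36.0 to 78.4% that overlaps. The narrow ones of distal X were not the margins of wide regions, of which that part had only 17. On proximal X, 2 of the 29 narrow regions had a wide region within 1 kb, and 27 had no region that near. Among the 206 of distal X, 34 had a region within 1 kb, and for 32 of these it was only other narrow ones, for 2 a middle one and for none a wide one. Joining regions within 500 bp therefore left the ratio of narrow regions on X to the arms at 2.09 and the median width of distal X at 57 bp. The run with the highest density of the distal part shows such a group. From 14281843 to 14292063 it had 5 regions in 10.2 kb, 4 of them narrow, with 142 IP and 59 input reads in all.

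A single region of distal X stood apart in depth. From 3751988 to 3752111, the deep region of 124 bp, there were 220 IP and 171 input reads, or 1774 and 1379 per kb, and the ratio was 1.45 (interval from 1.19 to 1.79). The next highest input depth among the 137 distal X regions over 50 bp was 309 reads per kb. Of the 254 such regions on 2L and 287 on 3L none exceeded 400 input reads per kb, and of 269 on 3R 2 did. In the proximal part a region of 1729 bp from 21681642 to 21683370, named after its values had been seen, had 1258 IP and 838 input reads, or 485 input reads per kb, and the ratio was 1.70 (interval from 1.55 to 1.85). It is the wide region in the last 0.9 Mb. The next highest input depth on proximal X was 277 reads per kb, but such depth is not particular to X, since 45 proximal regions of 2L, 5 of 3L and 1 of 3R also exceeded 400 input reads per kb. Among the other narrow regions with many IP reads, from 13881252 to 13881414 there were 54 IP and 29 input reads, a ratio of 2.10, and from 20849721 to 20849914 in the proximal part 51 and 27 reads, a ratio of 2.13.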

How the data were processed

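Per the study's methods, 50-nt single-end reads were placed on dm3 by the authors using Bowtie 0.12.5, with 1 placement per read, and htSeqTools served to take out over-amplified reads, to align the strands and to find regions enriched over input. The minimum number of reads was set to 10 in that last step. The deposited list gives, per region, raw read counts and RPKM of each library and a Benjamini-Hochberg p-value below 0.05, all made by the authors. The list has no column names, and counts were assigned to IP and input by the stated order of the columns. Reads with several placements are absent, which bears on the centromeric end.

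From the list, densities, widths, gaps and pooled ratios were computed with Python 3.11.15, scipy 1.17.1, pandas 2.3.3, numpy 2.4.6 and matplotlib 3.10.9. Arm length was the end of the last region. Expected reads at equal width used the depth of 2L, 3L and 3R in 6 classes, with limits of 50, 200, 400, 800 and 1600 bp. Intervals are exact on reads and counts, Wilson on shares, and from the log of the reads for ratios summed over classes. No test was run across samples. The code was tested on simulated regions. Regions named are the clusters, the largest runs, the widest, the narrow ones with most IP reads, the longest gaps, the densest bins, the interval of high ratios and 1 typical region per class. The largest runs include 1 of 6 regions from 2670631 to 2690757, of which the interval of high ratios makes up 5. The densest distal run was named in addition. The members and lists were chosen with earlier results of these data known. Alternatives were the regions with the lowest p-values, joined regions, covered bp, other borders, other classes, single arms and leaving out the interval. The comparisons of narrow and of wide density, the band from 0.9 to 1.4 Mb and the deep regions, with the values that leave the deepest one out, were added once the values were known.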

Additional observations from a re-analysis of the deposited data

How the results depend on the processing

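Of 70 alternatives over 11 results, 36 stayed within the interval of the reported value and 34 left it. None of the ratios whose interval excludes 1 changed direction, while the density of distal X relative to the arms, 0.946 with an interval that includes 1, was 1.03 with a proximal part of 4 Mb. With a proximal part of 1 Mb, which puts the dense stretch of X into the distal part, narrow regions were 64.2% of distal X with a median width of 68 bp, the median gap was 23.8 kb, input depth and ratio at equal width were 0.830 and 1.05, and wide regions had a density of 0.328 relative to the arms. The ratios of proximal to distal X were 1.76 for all and 1.48 for wide regions. With 4 Mb, input depth was 0.902 and the ratio of proximal to distal 2.33. The 3224 regions with the lowest p-values, which depend on the IP to input ratio, include 45 on distal X. Of these 26 are narrow and 6 wide, and all 5 regions of the interval of high ratios are among them. There the density of X relative to the arms was 0.795, that of narrow regions 2.75, the narrow share 57.8%, the median width 68 bp, the median gap 225 kb (224.5), the ratio of proximal to distal 7.94, input depth 0.813, the IP to input ratio at equal width 1.34 and the pooled ratio on X 1.51, against 1.55 for all 369 regions. Restriction to the wider regions of the list, from its median up, gave a density of 0.268, a ratio of proximal to distal of 13.5 and a gap of 76.9 kb, and covered bp gave 0.226 and 17.2. Joining regions lowered proximal to distal to 2.62. Narrow taken as at most 100 bp or at most the list median gave shares of 65.0% and 84.1%, and narrow as at most 50 bp a density of 2.59. Input depth was 0.952 with 12 classes, 0.884 against 2L alone and 0.967 against 3R alone. Without the interval of high ratios it was also 0.967, the ratio at equal width 1.03 and the pooled ratio 1.51. That interval was chosen by its ratios and left out of X alone, so that the ratios had to fall. The cause of these differences was not tested, beyond what each alternative leaves out. No paired analysis was possible because each group has 1 library. Depth limits the narrow regions most, where the typical ratio of 20.3 has a lower limit of 3.21.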
